A study of Mus musculus with 5 samples.

Results

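The genes examined here copy DNA or carry out mitosis, together with cyclins and kinases that drive entry into S phase. They were chosen by name, with earlier results of these data known, so shares of all genes given beside their counts come from an unselected background. Of the 59 genes listed, 50 had probes with 1 gene symbol that were measured on all arrays. In all, 8637 genes were measured in this way. The 50 comprised 28 of 31 DNA replication genes, 18 of 23 mitosis genes and 4 of 5 cyclin and kinase genes of G1/S and S phase. Orc1, Mcm3, Fen1, Ccne2, Ccnb1, Cdc25c, Aurka, Bub1b and Kif11 were not analysed here. RNA came from bone marrow macrophages of C3H/ARC mice, differentiated in culture with human CSF-1, on which macrophages depend for growth, and each sample was hybridised on a 2-colour cDNA array against RNA of C57BL6/J whole embryos at day 17.5. Untreated cells (0 h) were compared with cells kept in lipopolysaccharide (LPS) of S. minnesota at 10 µg/ml, for 0.5, 2, 7 or 21 h. LPS is the glycolipid of the outer leaflet of Gram-negative bacteria. Each time was measured on 1 array, so no difference has a replicate check and no test or p-value is given.

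Cells that grow in CSF-1 pass through the cell cycle, and exposure of cultured macrophages to LPS is known to halt that growth. Before S phase, the origin recognition complex with Cdc6 and Cdt1 loads the MCM helicase on DNA. GINS then helps to activate the helicase, DNA polymerase alpha with primase starts new strands, and the sliding clamp PCNA, loaded by replication factor C, holds the polymerases in place. In mitosis, Cdk1 with B-type cyclins drives entry, the chromosomal passenger complex and the spindle checkpoint guard chromosome attachment, and the anaphase-promoting complex ends the phase by marking proteins for destruction. Many replication genes are known targets of E2F factors, and many mitosis genes carry a cell cycle homology region (CHR) that the DREAM and MuvB complexes bind.

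Promoter sequences are shown first, because the classes compared below differed in these elements. RefSeq windows of GRCm38.p6, from 250 bases before each gene's start to 50 after, were found for 42 of the 50 genes. Aurkb, Ccna2, Gins1, Gins2, Mcm4, Prim2, Smc4 and Tipin had no entry in the table. Each stretch printed is the 100 bases before the start, 5′ to 3′ on the gene's strand. Capitals mark the E2F word in Mcm6, Rrm1 and Prim1, the CHR word in Ube2c, Cdca5 and Cdc20, and the CCAAT box (ATTGG on the other strand) wherever it occurs. Mcm6 and Rrm1, and Ube2c and Cdca5, had log2 changes between -2.02 and -0.98 at 21 h. Prim1 and Cdc20 are shown because they carry words of the same kinds at changes of -0.33 and 0.49. They lie at chr1:128359706-128359805 on the minus strand (Mcm6), chr7:102441595-102441694 on the plus strand (Rrm1), chr10:128015115-128015214 plus (Prim1), chr2:164769829-164769928 plus (Ube2c), chr19:6084997-6085096 plus (Cdca5) and chr4:118437344-118437443 minus (Cdc20).
Mcm6: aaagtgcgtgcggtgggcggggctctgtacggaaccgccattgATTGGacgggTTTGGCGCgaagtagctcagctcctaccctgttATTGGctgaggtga
Rrm1: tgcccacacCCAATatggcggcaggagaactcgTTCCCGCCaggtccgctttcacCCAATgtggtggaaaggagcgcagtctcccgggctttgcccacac
Prim1: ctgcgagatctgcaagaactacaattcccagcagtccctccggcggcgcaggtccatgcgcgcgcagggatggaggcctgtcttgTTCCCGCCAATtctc
Ube2c: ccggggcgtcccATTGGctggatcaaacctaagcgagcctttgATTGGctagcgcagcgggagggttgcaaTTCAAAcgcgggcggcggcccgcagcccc
Cdca5: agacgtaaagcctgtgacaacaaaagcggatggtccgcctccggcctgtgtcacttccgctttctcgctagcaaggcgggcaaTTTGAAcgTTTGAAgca
Cdc20: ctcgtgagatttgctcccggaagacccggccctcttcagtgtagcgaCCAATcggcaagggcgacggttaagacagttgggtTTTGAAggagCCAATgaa

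Values below are log2 ratios of macrophage to embryo RNA, each array centred on its median probe, and a change is the difference from the 0 h array. The log base and direction of the deposited ratios are not stated in the labels. Base 10 was inferred from their size, and with base 2 every log2 value would be 3.32 times too large. The direction was taken from markers: 10 macrophage genes had median log2 ratios between 1.91 and 2.39 on the 5 arrays and 31 whole-embryo genes between -2.15 and -1.53. The reverse direction would exchange higher and lower throughout. On the 0.5 h and 2 h arrays high ratios were concentrated in 94 of 207 runs of 96 consecutive probe numbers, called affected runs here, defined by a share of 10% or more of their probes being 2-fold higher than at 0 h. These hold 45.3% of all probes but 46 of the 72 probes of the genes described (63.9%), so early values of those probes, and late counts that differ between the sides, are given with this in view. The SD over probes of 1 gene, pooled over genes with several probes, was 0.67, 0.97, 0.51 and 0.47 for the changes at 0.5, 2, 7 and 21 h. It is technical and is no error between cultures, and 32 of the 50 genes rest on 1 probe.

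Ratios of the genes described were high at the start and lower late. At 0 h, 37 of the 50 stood above the array median (median log2 ratio 0.45), at 0.5 h 40, at 2 h 35, at 7 h 19 (median -0.14) and at 21 h 13 (median -0.30). Among all genes the share above the array median ran between 46.2% and 49.2% over the 5 arrays. RNA of whole cultures was measured, so fewer cycling cells and less RNA per cell cannot be told apart.

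**Figure D1:**
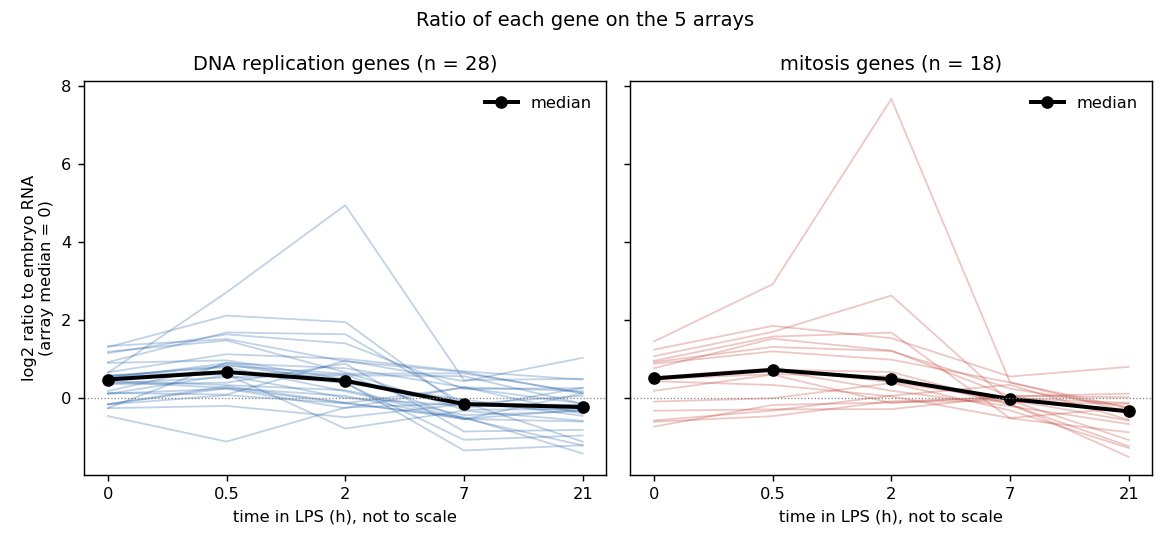
Log2 ratio to embryo RNA (vertical axis, array median at 0) of each gene on the 5 arrays (horizontal axis, time in LPS, not to scale); thin lines are genes, the black line is the class median. The median of the 28 replication genes goes from 0.46 at 0 h to -0.17 at 7 h and -0.24 at 21 h, that of the 18 mitosis genes from 0.49 to -0.04 and -0.36; the peaks at 2 h are Gins2 and Cdca5.

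At 0.5 h the median change of the 50 genes was 0.25, against 0.08 for all genes, and at 2 h it was 0.07 for both. At the 1.5-fold limit 10 genes were higher and 1 was lower at 0.5 h, and 10 were higher and 2 lower at 2 h. Of all 8637 genes, 1098 were higher and 378 lower by this limit at 0.5 h, and 1887 and 493 at 2 h. At 0.5 h none was at least 2-fold lower (1.01% of all genes were) and 3 were at least 2-fold higher (5.95% of all genes), namely Cdc6, Gins2 and Cdca5, with log2 changes of 1.17, 2.07 and 1.47. At 2 h only Gins1 was at least 2-fold lower (1.1% of all genes), and Gins2, Cdca5 and Cks2 were higher by 4.31, 6.24 and 1.56 (12.4% of all genes). All probes of Gins2, Cdca5 and Cks2 lie in affected runs, and of the 2 probes of Cdc6 the one outside them had a change of 0.20 at 0.5 h against 2.15 inside. Whether the early high values reflect RNA was not tested.

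After 7 h, 12 of the 50 genes were at least 2-fold lower than at 0 h, against 3.16% of all genes, and 0 were higher, against 4.08%. Of these 12, 9 were among the 28 replication genes and 3 among the 18 mitosis genes. Median changes were nevertheless close, -0.61 for replication and -0.66 for mitosis genes, with 0.00 for all genes.

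After 21 h both classes were low and the mitosis genes lower. Here 22 of the 50 genes were at least 2-fold lower, against 1.45% of all genes, and 0 were higher, against 3.05%. They were 10 of 28 replication genes, 11 of 18 mitosis genes, and the cyclin gene Ccna2. The median change was -0.82 for replication genes (quartiles -1.15 and -0.26), -1.13 for mitosis genes (-1.22 and -0.37) and 0.02 for all genes.

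**Figure D2:**
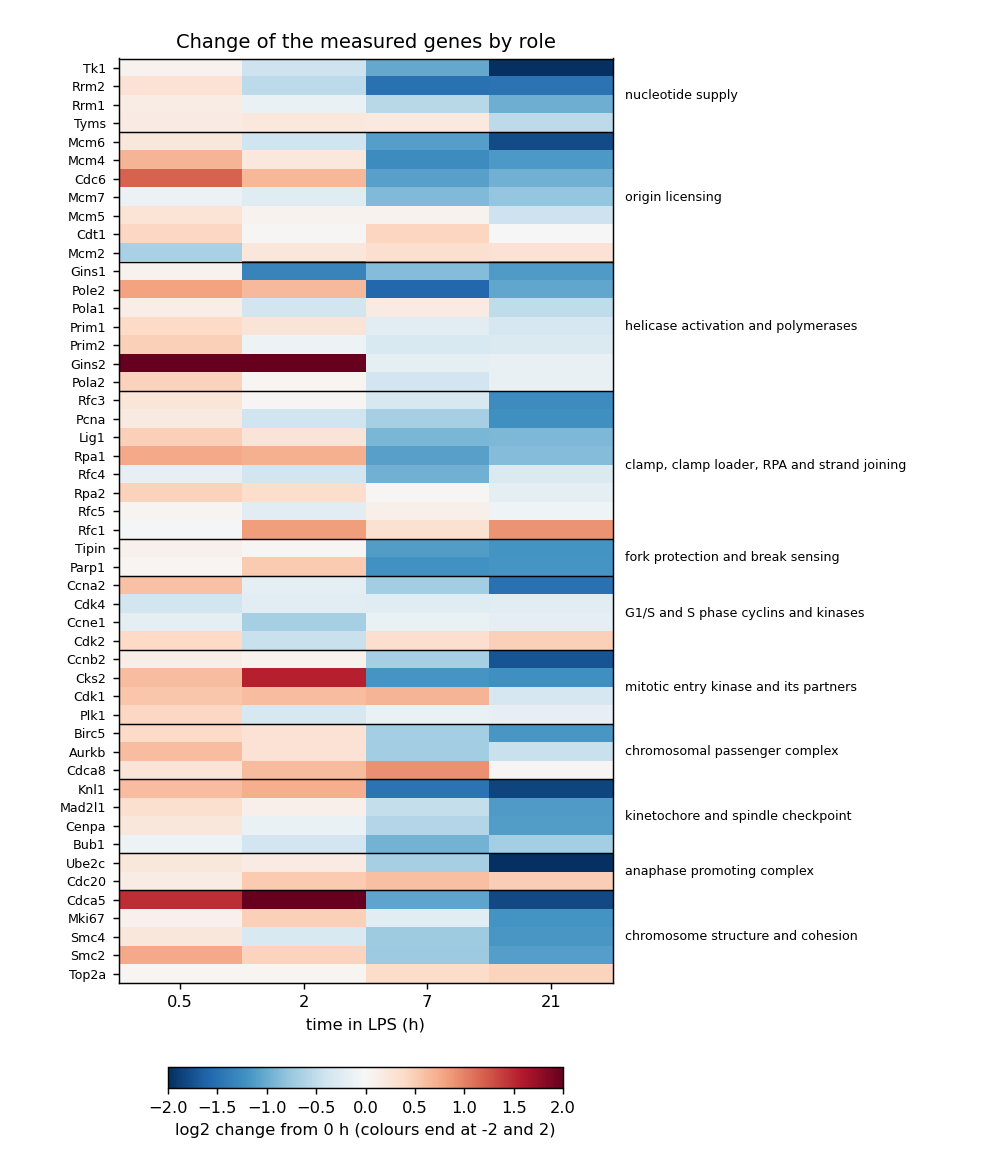
Log2 change from 0 h (colour, blue lower and red higher, ending at -2 and 2) of the 50 genes (rows, grouped by role and ordered by the value at 21 h) at 4 times in LPS (columns). Blue fills most rows at 7 h and 21 h, while Rfc1, Mcm2, Cdk2, Cdc20 and Top2a are red at both times.

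Among the enzymes that supply nucleotides, 2 of 4 were at least 2-fold lower at 21 h. Tk1, thymidine kinase, which salvages thymidine, had log2 ratios of 0.89, 0.96, 0.47, -0.13 and -1.13 at 0, 0.5, 2, 7 and 21 h. It was thus 2.02-fold lower at 7 h and 4.07-fold lower at 21 h than at 0 h, with each later time below the one before from 2 h on. Rrm2, the small subunit of ribonucleotide reductase, gave 1.18, 1.47, 0.65, -0.31 and -0.30, and so reached its low level by 7 h (2.81-fold lower) and had nearly the same level at 21 h (2.78-fold). Its partner subunit Rrm1 gave 0.51, 0.65, 0.37, -0.05 and -0.47. The 2 probes of Rrm1 disagreed, with changes at 21 h of -1.75 inside and -0.21 outside affected runs. Tyms, thymidylate synthase, had changes of 0.19 at 7 h and -0.52 at 21 h, the latter from probes at -1.30 inside and 0.25 outside.

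Of 7 measured origin licensing genes, 3 were at least 2-fold lower at 7 h and 2 at 21 h. Mcm6, a subunit of the replicative helicase, had log2 ratios of 0.56, 0.78, 0.16, -0.53 and -1.23 in order of time, 2.14-fold lower at 7 h and 3.46-fold at 21 h. Both probes of the helicase subunit Mcm4, which lie in affected runs, gave nearly equal changes, -1.25 at 7 h (SD over probes 0.10) and -1.14 at 21 h (SD 0.0054), from ratios of 0.17, 0.85, 0.37, -1.09 and -0.98. Cdc6, which loads the helicase, gave -0.27, 0.90, 0.39, -1.36 and -1.22. The low level of Cdc6 was seen on both of its probes, outside affected runs at -1.23 (7 h) and -1.16 (21 h) and inside at -0.95 and -0.75. The subunits of the MCM ring did not share 1 course: Mcm7 had changes of -0.88 and -0.78 at 7 h and 21 h, Mcm5 0.08 and -0.42, and Mcm2, whose single probe lies outside affected runs, 0.32 and 0.28. Cdt1 stood at 0.42 and 0.01.

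Helicase activation and polymerase genes spread widely. Gins1, a GINS subunit, had log2 ratios of 0.53, 0.60, -0.80, -0.34 and -0.60, and was the earliest of the 50 genes to lie at least 1.5-fold below 0 h and stay there (from 2 h). Gins2, another subunit of the same complex, had changes of -0.19 at 7 h and -0.15 at 21 h. Pole2, the second subunit of the leading-strand polymerase epsilon, gave 1.30, 2.11, 1.94, -0.28 and 0.25, and its change of -1.58 was the lowest of the 50 at 7 h, with -1.04 at 21 h. Of the polymerase alpha and primase genes none reached 2-fold: at 21 h Pola1, the catalytic subunit, stood at -0.51, Prim1 at -0.33, Prim2 at -0.29 and Pola2 at -0.14. Pola1 had ratios of 0.10, 0.23, -0.27, 0.27 and -0.42, and its change from 0 h did not reach 1.5-fold on any array.

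In the clamp, clamp loader, RPA and strand joining group, 1 of 8 genes was at least 2-fold lower at 7 h and 2 at 21 h. Pcna, the sliding clamp, was measured by 4 probes and had log2 ratios of 1.32, 1.51, 0.93, 0.65 and 0.10, with a change of -1.22 at 21 h (SD over probes 0.67). Of its probes, 3 gave changes between -1.63 and -1.44 and the remaining 1 gave -0.23. Rfc3, a clamp loader subunit, gave -0.18, 0.06, -0.15, -0.50 and -1.44, and so was late, with -0.32 at 7 h and -1.26 at 21 h (SD 0.32). Its companion Rfc4 was at -0.97 at 7 h and -0.29 at 21 h, and Rfc5 at 0.11 and -0.08. Rfc1, the large subunit, ran the other way at 0.12, 0.08, 0.95, 0.42 and 1.02, and was the replication gene with the highest change at 21 h (0.90). Rpa1, which coats single-stranded DNA, was lower by 7 h (-1.08, then -0.87), whereas Rpa2 stood at 0.03 and -0.19. Lig1, the ligase that joins Okazaki fragments, stood at -0.92 and -0.90.

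Tipin and Parp1 were both at least 2-fold lower at 7 h and 21 h. Tipin, which protects stalled forks with Timeless, had log2 ratios of 0.57, 0.66, 0.59, -0.55 and -0.62. Its 2 probes differed, with changes at 21 h of -2.06 inside and -0.32 outside affected runs. Parp1, a sensor of DNA breaks, gave 0.34, 0.38, 0.87, -0.87 and -0.83, level between the last 2 arrays.

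Among the cyclins and kinases of G1/S and S phase, 1 of 4 genes was at least 2-fold lower at 21 h. Ccna2, the cyclin of S phase and G2, had log2 ratios of 0.22, 0.80, 0.03, -0.48 and -1.27 and a change of -1.49. Cdk2, the kinase that cyclins E and A activate, gave -0.50, -0.11, -0.96, -0.16 and -0.03, higher than 0 h by 0.48 at the end. Cdk4, the partner of D-type cyclins, gave -0.23, -0.60, -0.45, -0.47 and -0.45, and Ccne1 had a change of -0.20, so neither left the spread between probes of a gene at 21 h.

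Genes of mitotic entry were uneven. Ccnb2, a B-type cyclin, had log2 ratios of 0.48, 0.60, 0.55, -0.18 and -1.25, 1.58-fold lower at 7 h and 3.31-fold at 21 h. That value joins probes at -2.97 inside and -0.48 outside affected runs (SD 1.76). Cks2, a small protein that binds Cdk1, gave 1.06, 1.69, 2.62, -0.11 and -0.16. Cdk1 itself gave -0.75, -0.19, -0.13, -0.07 and -1.09 on a probe outside affected runs, so its 0 h value was the second lowest of its 5 and its change was 0.68 at 7 h but -0.34 at 21 h. Plk1, the polo-like kinase, had changes of -0.13 and -0.17. Its value at 7 h joins probes at 0.28 inside and -0.54 outside affected runs (SD 0.57).

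In the chromosomal passenger complex 1 of 3 genes was at least 2-fold lower at 21 h. Birc5 (survivin) had log2 ratios of 0.91, 1.30, 1.196, 0.23 and -0.25, and was 2.24-fold lower at 21 h. The kinase Aurkb of the same complex gave 1.23, 1.84, 1.53, 0.54 and 0.79, with probes at 0.24 and -1.13 at 21 h, and the subunit Cdca8 gave -0.59, -0.34, 0.05, 0.33 and -0.57, back at its start. Of 4 kinetochore and checkpoint genes, 3 were at least 2-fold lower at 21 h. Knl1, a scaffold of the kinetochore, gave 0.95, 1.57, 1.67, -0.53 and -0.89 and was 2.79-fold and 3.58-fold lower at 7 h and 21 h. The checkpoint gene Mad2l1 had ratios of 0.87, 1.19, 0.97, 0.39 and -0.27 (change at 21 h -1.14, SD over probes 0.23). Cenpa, the histone variant of centromeres, went through 0.53, 0.75, 0.39, -0.06 and -0.59 (-1.12, SD 0.58). Bub1, on a probe outside affected runs, stood at -0.95 at 7 h and -0.68 at 21 h.

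The last groups held both ends of the mitosis genes. Ube2c, the ubiquitin-conjugating enzyme of the anaphase-promoting complex, had log2 ratios of 0.50, 0.72, 0.66, -0.16 and -1.53. It was 1.58-fold lower at 7 h and 4.07-fold at 21 h, and no other mitosis gene was as low against 0 h. Cdc20, an activator of the same complex, gave -0.62, -0.48, -0.09, -0.01 and -0.14, above its start at each later time and the highest mitosis gene at 21 h (0.49). Among 5 genes of chromosome structure and cohesion, 4 were at least 2-fold lower at 21 h. Cdca5 (sororin, which protects cohesion) gave 1.44, 2.92, 7.68, 0.39 and -0.36, 3.49-fold lower at 21 h. Mki67, the proliferation marker Ki-67, gave -0.10, -0.02, 0.37, -0.33 and -1.30 and the condensin gene Smc4 0.49, 0.71, 0.17, -0.22 and -0.68. Both were measured outside affected runs, with changes at 21 h of -1.19 and -1.17. Smc2, its condensin partner with 3 probes, was at -1.11 (SD 0.43), and Top2a, topoisomerase II alpha, at 0.44.

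Timing was then compared between the classes. Between 7 h and 21 h the median change of the 28 replication genes was -0.06 (quartiles -0.44 and 0.10) and that of the 18 mitosis genes -0.47 (quartiles -0.86 and -0.06), with 0.02 for all genes. At 21 h, 15 of 28 replication and 15 of 18 mitosis genes stood below their own 7 h value, compared with 4066 of 8637 genes. A step of at least 1.5-fold downward from 7 h was seen for 5 replication and 7 mitosis genes (5.9% of all genes). Of these, Tyms, Pola1, Cdk1 and Cdca8 stood above 0 h at 7 h (0.19, 0.17, 0.68 and 0.92), so their steps began from a raised value. The mitosis genes with the longest step were Ube2c (-1.37), Ccnb2 (-1.07), Cdk1 (-1.02), Mki67 (-0.97) and Cdca8 (-0.90). Among replication genes Tk1 (-1.01), already 2.02-fold lower at 7 h, and Rfc3 (-0.94) had steps of that size. By contrast Rfc4, Rfc1 and Pole2 moved upward by 0.67, 0.60 and 0.53. The Ccnb2 step came from its probe inside affected runs (-0.84 at 7 h, -2.97 at 21 h), as the other stood at -0.48 at both. All probes of Ube2c, Cdca8, Tk1, Rfc3, Rfc1 and Pole2 lie in affected runs, whereas those of Cdk1, Mki67 and Rfc4 lie outside. Of the genes at least 2-fold lower at 21 h, the 10 replication genes had reached a median of 85.4% of that change by 7 h (range 25.6% to 151%) and the 11 mitosis genes 58.2% (18.9% to 96.3%).

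Onset, measured as the first time from which a gene stayed at least 1.5-fold below 0 h, was then read for each gene. It was 7 h for 12 replication and 10 mitosis genes, and 21 h for 2 of each; with Ccna2, 23 of the 50 genes began at 7 h and 4 at 21 h, against 2.77% and 2.91% of all genes. Another 13 replication and 6 mitosis genes had no such time, compared with 8077 of 8637 genes in all. Among genes with an onset, 7 h was the most common time in both classes. No array between 2 h and 7 h could order onsets within that interval. Over all probes, the classes thus differed in the median step after 7 h. With 1 array at each time this difference has no error between cultures, and genes are not replicates of a time.

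**Figure D3:**
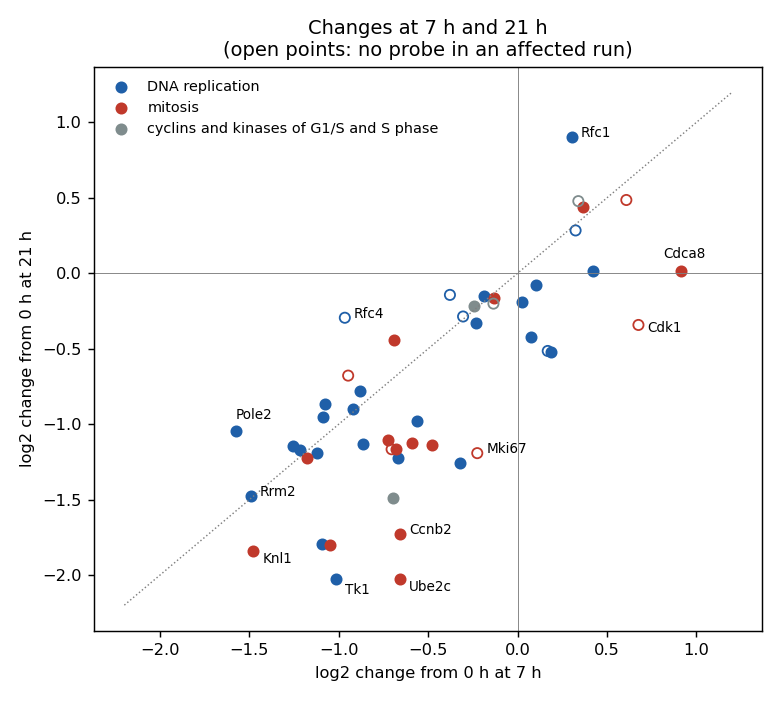
Log2 change from 0 h at 7 h (horizontal axis) and at 21 h (vertical axis) for the 50 genes; colours are classes, open points are genes with no probe in an affected run, and the dotted line marks equal changes. Of the mitosis genes, 15 of 18 lie below the line, Ube2c farthest, while replication genes lie on both sides, from Tk1 below to Rfc4 above.

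The affected runs bear on both results. On probes inside them, 9 of 23 replication and 3 of 13 mitosis genes were at least 2-fold lower at 7 h (4.45% of all genes with such probes), and 12 and 9 at 21 h (2.69%). On probes outside them, 1 of 13 replication and 0 of 8 mitosis genes were at least 2-fold lower at 7 h (2.87%), and 2 and 2 at 21 h (1.08%), namely Cdc6, Pcna, Mki67 and Smc4. The median change at 21 h was -1.04 inside and -0.29 outside for replication genes, and -1.14 inside and -0.41 outside for mitosis genes. From 7 h to 21 h it was -0.02 and -0.50 inside, but -0.12 for 13 replication genes and -0.06 for 8 mitosis genes outside. The difference in timing was thus not seen outside, though only 8 replication and 3 mitosis genes had probes on both sides. Among the 11 genes with probes on both sides, the inside value was the lower at 21 h for 7, compared with 889 of 1743 such genes in all. Every run of 96 probes was instead centred on its own median on each array, which keeps all 50 genes. Then 9 were at least 2-fold lower at 7 h and 20 at 21 h, with the share of all genes not computed. The median changes at 21 h were then -0.76 for replication and -1.08 for mitosis genes, and the mitosis minus replication difference in the step from 7 h to 21 h was -0.46. The difference in timing was of similar size with the level of each run removed. Such centring leaves the spread of values, which was wider inside affected runs. For the change at 21 h the SD over all genes was 0.57 inside and 0.45 outside, while the medians were 0.01 and 0.02. The run-centred value therefore cannot show whether the difference in timing depends on the affected runs. That difference was not seen with the affected runs left out, where 13 replication and 8 mitosis genes have a value.

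**Figure D4:**
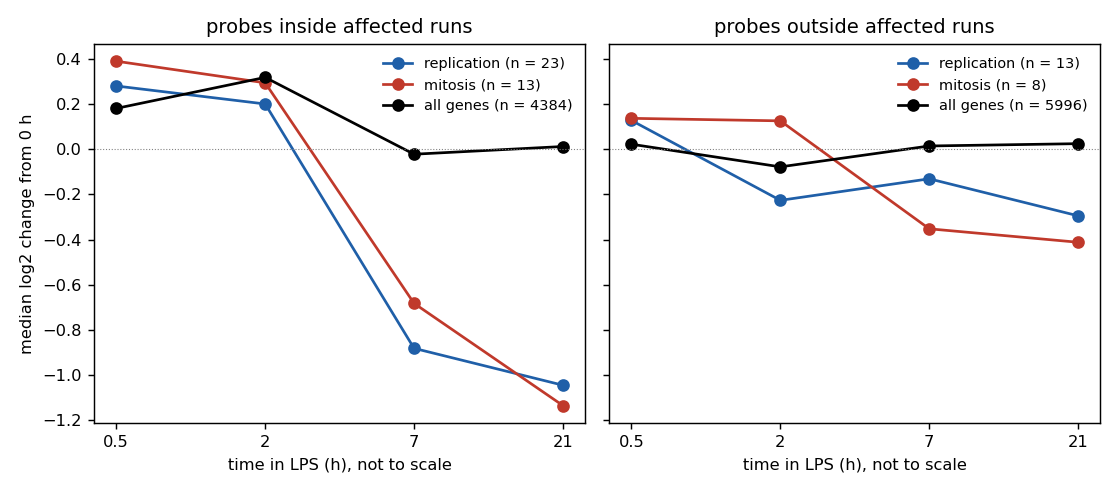
Median log2 change from 0 h (vertical axis) at 4 times (horizontal axis, not to scale) on probes inside (left) and outside (right) the affected runs, for replication, mitosis and all genes. Inside, the classes reach -1.04 and -1.14 at 21 h while all genes stay at 0.01; outside, they reach -0.29 and -0.41, with all genes at 0.02.

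Promoter words divided the classes. The E2F words searched, on both strands, were TTTGGCGC and TTTCCCGC and TTTGGCGG and TTTCGCGC and TTCCCGCC, which overlap one another. The CHR words were TTTGAA and TTCGAA, and CCAAT was searched alone; in Prim1 it shares bases with the E2F word. An E2F word was present for 14 of 23 replication genes (60.9%) and 1 of 16 mitosis genes (6.25%), the 1 being Cdk1, against 7.45% of 6963 measured genes with a window and 3.95% of all 32851 windows. A CHR word was present for 3 of 23 replication genes (13.0%) and 13 of 16 mitosis genes (81.3%), against 17.6% of measured genes and 19.2% of all windows. CCAAT was found for 13 of 23 (56.5%) and 12 of 16 (75%), against 42.9% and 37.4%. These matches describe letters in a window and no binding was measured.

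Over the 42 genes with a window, 13 had an E2F word and no CHR word, namely 12 replication genes and Cdk2, and their median changes were -0.56 at 7 h and -0.51 at 21 h (-0.74 and -0.69 without Cdk2). The 13 with a CHR word and no E2F word, of which 12 were mitosis genes and 1 was Mcm2, had -0.59 and -1.11. The 13 with neither had -0.48 and -1.14, and without the cyclin and kinase genes Ccne1 and Cdk4 -0.67 and -1.16. Of these groups 4, 2 and 4 genes were at least 2-fold lower at 7 h, and 2, 7 and 7 at 21 h. The remaining 3 genes, Mcm7, Rfc3 and Cdk1, held words of both kinds. Tk1, Rrm2 and Pcna held neither an E2F nor a CHR word in these windows and yet were among the lowest replication genes at 21 h. The E2F and CHR groups nearly repeat the classes and add no separate evidence on timing. The group with neither word was mixed, with 8 replication, 3 mitosis and 2 cyclin and kinase genes.

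**Figure D5:**
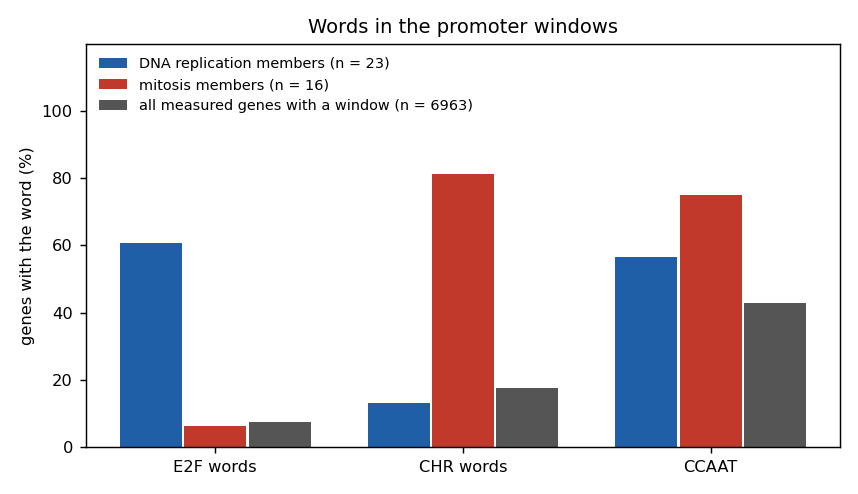
Share of genes (vertical axis, percent) with an E2F word, a CHR word or CCAAT in the 300-base promoter window, for replication genes, mitosis genes and all measured genes with a window. E2F words stand out in replication genes (60.9%) and CHR words in mitosis genes (81.3%).

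Other genes of the pathway were read from lists that exclude the 50. Of 31 other replication genes 0 were at least 2-fold lower at 7 h or 21 h (median changes -0.10 and -0.28), against the background shares given above. The largest changes at 21 h among them were those of Pold4, a small subunit of polymerase delta (0.87), of the CTP synthase gene Ctps (-0.82), and of the histone chaperone genes Nasp (-0.68) and Chaf1b (-0.63). Of 43 other mitosis genes 5 were at least 2-fold lower at 7 h and 5 at 21 h, with 1 higher at 21 h (medians -0.22 and -0.46). Of all genes, 3.16% and 1.45% were lower at these times, and 3.05% were higher at 21 h. From 7 h to 21 h the median step was 0.03 for the other replication genes, with 14 of 31 below their 7 h value, and -0.09 for the other mitosis genes, with 23 of 43 below. Both lie closer to the value of all genes (0.02) than does the step of the 18 mitosis genes described above (-0.47). The lowest of the other mitosis genes at 21 h were Anln, which builds the cleavage furrow (-1.35), the microtubule regulator Stmn1 (-1.31), the spindle assembly factor Tpx2 (-1.25) and Incenp, the scaffold of the passenger complex (-1.21). Anln, Tpx2 and Incenp were measured outside affected runs. Among 20 cell cycle regulators the 2-fold limit was passed downward by 1 and upward by 1 at 21 h (median 0.00), against 1.45% and 3.05% of all genes. These were Chek1, the replication checkpoint kinase (-1.43), and Mdm2, the ligase that removes p53 (1.12), both outside affected runs, followed by Cdk6 (-0.88) and the CDK inhibitor gene Cdkn2c (-0.79).

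Markers of other cells were read on the same arrays. The 7 measured neutrophil and myeloid progenitor markers had a median change of 0.11 at 7 h and -0.37 at 21 h. Of these 7, 2 were at least 2-fold lower at 21 h (1.45% of all genes), Ngp (-1.62) and Mpo (-1.25). The log2 ratios of the 7 ranged from -1.56 to 1.14 at 0 h and from -1.38 to 0.93 at 21 h. Macrophage markers (10 genes) had a median change of 0.13 at 21 h, with 0 at least 2-fold lower and 1 higher (1.45% and 3.05% of all genes). They ranged from -0.98 (Laptm5, outside affected runs) to 1.28 (Fcgr1, inside). Erythroid (9), lymphocyte (5) and stromal (9) markers had medians of 0.21, 0.44 and -0.07. The lymphocyte markers ranged from -0.27 (Ighm) to 1.79 (Cd79b). The remaining 5 neutrophil and progenitor markers lay between -0.65 (S100a9) and 0.18 (Cd34), with S100a8 at -0.37, Elane at -0.17 and Camp at 0.10. The SD over the 2 probes of Ngp was 1.08. The part of these markers in the result was not tested.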

How the data were processed

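The deposited table gives, for 5 arrays, a log ratio per probe, read here as log10; what the authors did to normalize it, the log base, the direction and the dye of each channel are not given in the sources used here. Of 19828 probes, 14759 carried 1 gene symbol in the platform annotation of 2008, and 14628 of these were matched by Entrez identifier to the GRCm38.p6 gene table. Values were multiplied by 3.32, and the median of the 18296 probes with a value on every array was subtracted from each array. The 13782 named probes among them were averaged per symbol, giving 8637 genes. A gene was counted as lower or higher at 2-fold from 0 h. Values on all 5 arrays are given, in each role, for up to 3 genes with the largest absolute change at 21 h, and for the gene of each class that changed most in the opposite direction. From each other pathway list up to 4 genes are named by the same measure. The genes, lists and the marking of affected runs were chosen with earlier results of these data known. Promoter words were searched in 32851 RefSeq windows. Python 3.11.15, numpy 2.4.6, pandas 2.3.3 and matplotlib 3.10.9 were used. The gene averages were tested on simulated data, which held no affected runs and less spread between probes than these arrays. Precision is limited by having 5 arrays, and signal over background was not used here.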

Additional observations from a re-analysis of the deposited data

How the results depend on the processing

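Among the 50 genes, the sign of the change differed from the main value for at most 5 at 7 h and 3 at 21 h under any alternative. With runs centred these were Gins2 and Mcm5 at 7 h and Cdca8 and Rfc5 at 21 h, and without the affected runs, where 23 genes have a value, Rpa2 at 7 h and Tyms and Cdt1 at 21 h. The 12 genes at least 2-fold lower at 7 h and the 22 at 21 h stayed below 0 wherever an alternative gave them a value, though reading the values as log2 cannot change a sign; without the affected runs only 2 and 5 of them have one. Without those runs the counts of genes 2-fold lower at 7 h and 21 h were 1 and 4 in all, 1 and 2 for replication, and 0 and 2 for mitosis; medians were -0.13 and -0.29 for replication, and -0.35 and -0.41 for mitosis. The mitosis median from 7 h to 21 h became -0.062, and the mitosis minus replication difference in that step (-0.42) reversed to 0.062. With values read as log2 all these counts were 0, the medians -0.18 and -0.25 (replication) and -0.20 and -0.34 (mitosis), the mitosis step -0.14 and the difference -0.13. Quantile normalization, for which the share of all genes was not computed, gave 21 genes in all, 14 replication and 7 mitosis genes at 7 h. Its medians at 7 h and 21 h were -0.93 and -1.05 (replication) and -0.90 and -1.38 (mitosis). Without centring these medians were -0.83 and -0.97, and -0.88 and -1.27, and the replication step from 7 h to 21 h reversed from -0.06 to 0.019. Against 0.5 h in place of 0 h they were -0.83 and -1.16, and -0.83 and -1.37, with 6 mitosis genes lower at 7 h. From that base 709 of all 8637 genes were at least 2-fold lower at 7 h. A 1.5-fold limit gave 26 genes in all, 14 replication and 11 mitosis genes at 7 h, against 930 of all 8637 genes. Placing the cyclin and kinase genes in the other classes gave replication medians of -0.38 and -0.52. The causes were not tested beyond what each alternative's construction shows. No paired analysis was possible because each time has 1 array, and for the same reason no replicate could be left out.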
